A study of Mus musculus with 6 samples.

Results

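The genes described here are 33 components of the AKT and mTOR pathway and of the translation control that lies below it. They were picked out by symbol, from a list of kinases, complex subunits, GTPases and substrates. The list was chosen with earlier results of these data known. All 33 were found among the 14992 genes of the deposited count table. AKT is a kinase that is recruited to the membrane by the lipid that PI3K makes, and it restrains the TSC complex, the FOXO transcription factors and the GSK3 kinases. The TSC complex switches off the small GTPase Rheb, which activates the mTOR kinase at the lysosome, where Rag GTPases hold mTOR when amino acids are plentiful. Active mTOR complex phosphorylates the S6 kinases and the eIF4E-binding proteins and so raises cap-dependent translation. In blood, this pathway is known for balancing the quiescence of stem cells against growth. Most of its steps are phosphorylations, which a count of RNA does not measure.

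The 6 RNA libraries came from mouse bone marrow. Marrow cells of Dnmt3a knockout mice had been given to irradiated C57/BL6 recipients, so both groups carry the knockout, and the protocol calls the transplanted cells leukemic. For 21 days the recipients received vehicle (3 libraries, numbered 1, 2 and 3) or a PI3Kalpha/beta inhibitor at 75 mg/kg (3 libraries, numbered 1, 3 and 5), and the marrow was then harvested. How Dnmt3a was deleted, the age and sex of the mice, the schedule of dosing, the share of surviving host cells and the number of mice behind each library are not given in the sources used here, so p-values measure only the spread between these libraries. Values below are in the order of those library numbers. The comparison asks how RNA levels in knockout marrow differ between inhibitor and vehicle.

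Total counts ran from 28198638 to 59384880 per library. Vehicle 1 stood apart from vehicles 2 and 3: 12 macrophage markers summed to 7006 CPM there (read counts scaled to library size) against a lowest vehicle value of 1905 CPM, and limma gave it a quality weight of 0.161. Markers of several cell types differed between the groups. The macrophage markers ran from 465 to 746 CPM with the inhibitor, and 6 of 12 fell in the edgeR test. The 9 neutrophil markers in the table summed to between 36666 and 58760 CPM with vehicle and between 96748 and 113167 CPM with the inhibitor, and 2 rose. For 10 B-lineage markers the sums were 57.5 to 123 CPM against 194 to 578 CPM, and 3 rose. The 10 T and NK cell markers summed to 177 to 243 CPM against 157 to 181 CPM, with 1 lower. These sums hide opposite directions. Estimates were below 0 for 9 of the 10 markers, and the median log2 fold change (inhibitor over vehicle) was -0.83. Only Nkg7 had an estimate above 0, with 40.9, 59.6 and 46.7 CPM with vehicle and 75.5, 69.4 and 78.6 CPM with the inhibitor. No erythroid marker passed (996 to 4034 CPM against 655 to 1432 CPM, 9 tested), nor did a stromal or endothelial one (297 to 759 CPM against 218 to 371 CPM, 9 tested), at edgeR adjusted p under 0.05. Bglap, the bone-forming cell marker, had a mean under 1 CPM in both groups. The part of these shifts in the results below was not tested, and in whole marrow fewer cells of a type and less RNA per cell cannot be told apart.

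Of the 33 genes, 1 passed the edgeR quasi-likelihood test over all genes at a Benjamini-Hochberg adjusted p under 0.05. That gene was Pdcd4, an inhibitor of cap-dependent translation, which rose 1.70-fold. Among all 12806 genes tested, 1.83% passed (0.633% higher and 1.19% lower with the inhibitor), and the members' 3.03% is a single gene. At an unadjusted p under 0.05, Pdcd4 and Foxo4 were higher and Eif4g1 and Tbc1d7 lower, while 21.6% of all tested genes met that mark (9.68% higher and 11.9% lower). At an adjusted p under 0.10 the members' count was still 1, against 8.25% of all tested genes. All 33 members passed the filter on low counts.

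Most members had small differences. The median log2 fold change (inhibitor over vehicle) was -0.05 over the 33 and 0.00093 over all tested genes. Without regard to sign the median was 0.13 for the members and 0.26 for all tested genes. Estimates were above 0 for 14 members and below 0 for 19, and they ran from -0.57 for Tbc1d7 to 0.77 for Pdcd4. For 13 members the estimate was smaller than 0.1 in size. The 95% interval of the edgeR fit, not adjusted for the number of genes, lay within a 1.5-fold change in either direction for 21 of 33 members, against 32.1% of all tested genes. It lay within a 2-fold change for 29 members, against 63.9% of all tested genes. The 4 members whose interval reached past 2-fold were Pdcd4, Mlst8, Tbc1d7 and Rragd. These genes were also measured with little spread. Their median coefficient of variation among the vehicle libraries was 10.4% against 18.2% for all tested genes, and among the inhibitor libraries 8.77% against 13%. The members' median level was higher than that of all tested genes (16.7 against 8.60 CPM per kb of gene length). None of these comparisons was matched on level.

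**Figure D1:**
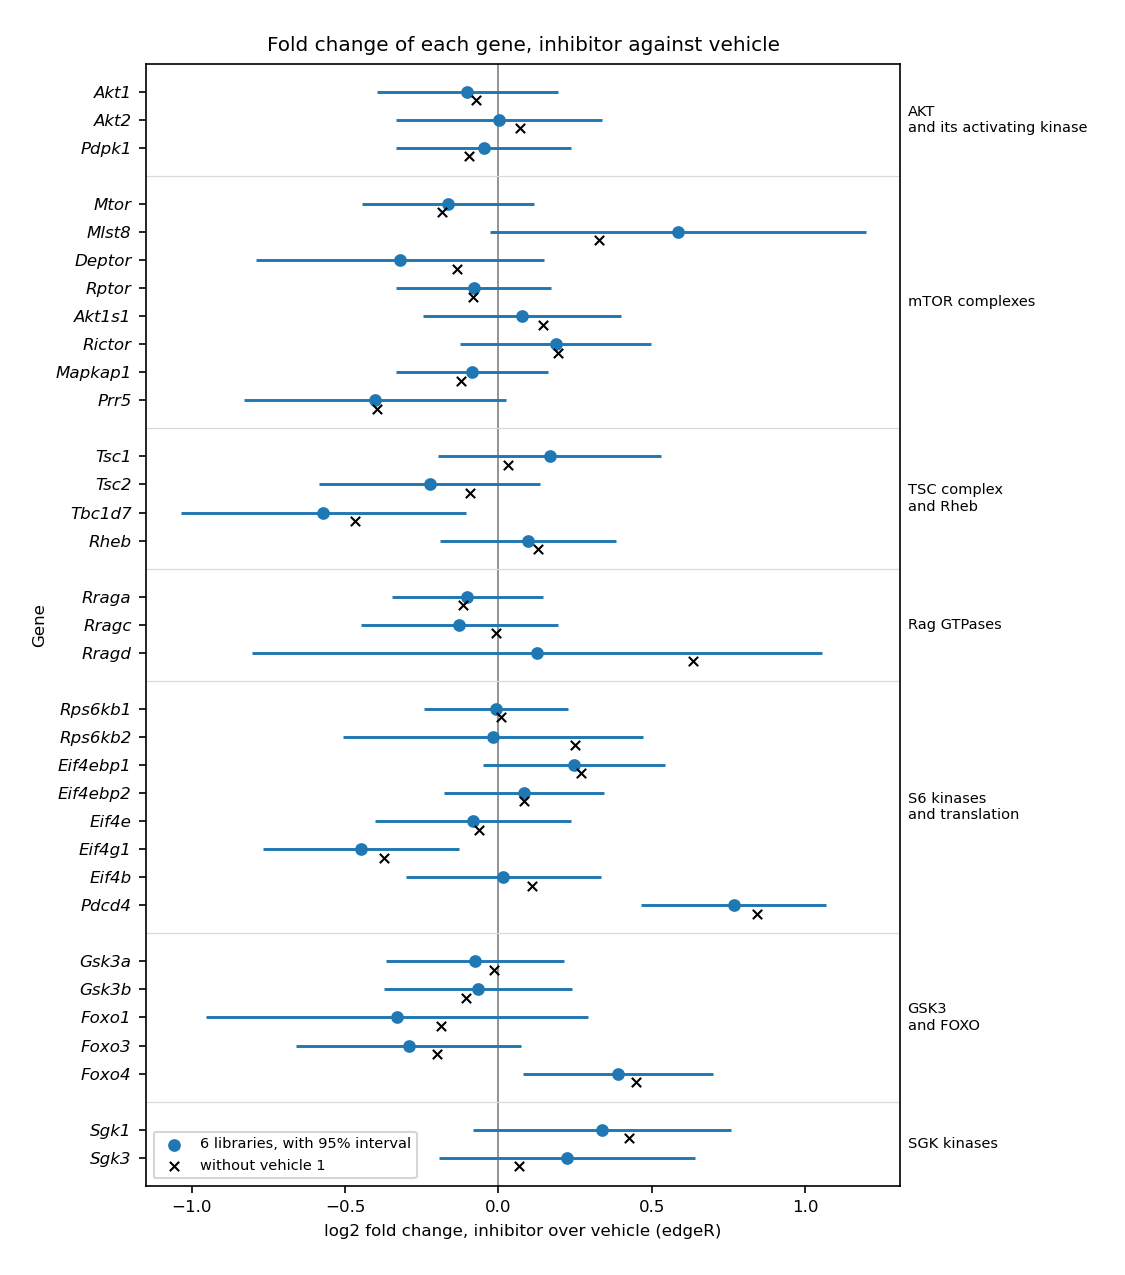
Log2 fold change (inhibitor over vehicle) of the 33 genes by role, with points for the edgeR estimate and bars for its unadjusted 95% interval, and crosses for the estimate without vehicle 1. Estimates run from -0.57 (Tbc1d7) to 0.77 (Pdcd4), and Pdcd4 alone passed the adjusted threshold over all genes.

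By level, the members spanned 138-fold. Eif4b, which helps unwind messenger RNA at the cap, had the highest mean over the 6 libraries at 125 CPM per kb of gene length, and Rragd, a Rag GTPase, had the lowest at 0.909 CPM per kb. The median of the 33 was 16.7 CPM per kb against 8.60 CPM per kb for all tested genes, and 23 of the 33 lay above the latter. After Eif4b the order was Akt1, Eif4g1, Eif4ebp2, Eif4ebp1, Gsk3a and Pdcd4, and at the low end stood Prr5, Deptor and Rragd. The ranges of neighbours in the order, taken over the 6 libraries, overlapped in 30 of 32 cases. The 2 pairs that did not overlap were Rps6kb1 above Rictor, and Deptor above Rragd. Compared within each library, some overlapping neighbours kept their order in all 6. These were Eif4b above Akt1, Akt1 above Eif4g1, Rragc above Rraga and Sgk3 above Pdpk1. Rps6kb2 was above Mlst8 in only 1 of the 6. The mTOR kinase itself ranked low, at place 26 by level per length. Summed over the 33 members, levels ran from 3089 to 3405 CPM with vehicle and from 3064 to 3254 CPM with the inhibitor, and the ranges overlapped. That overlap depends on the scaling of library sizes. As a share of unscaled total counts the members made up 0.324% to 0.354% with vehicle and 0.295% to 0.310% with the inhibitor, without overlap.

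**Figure D2:**
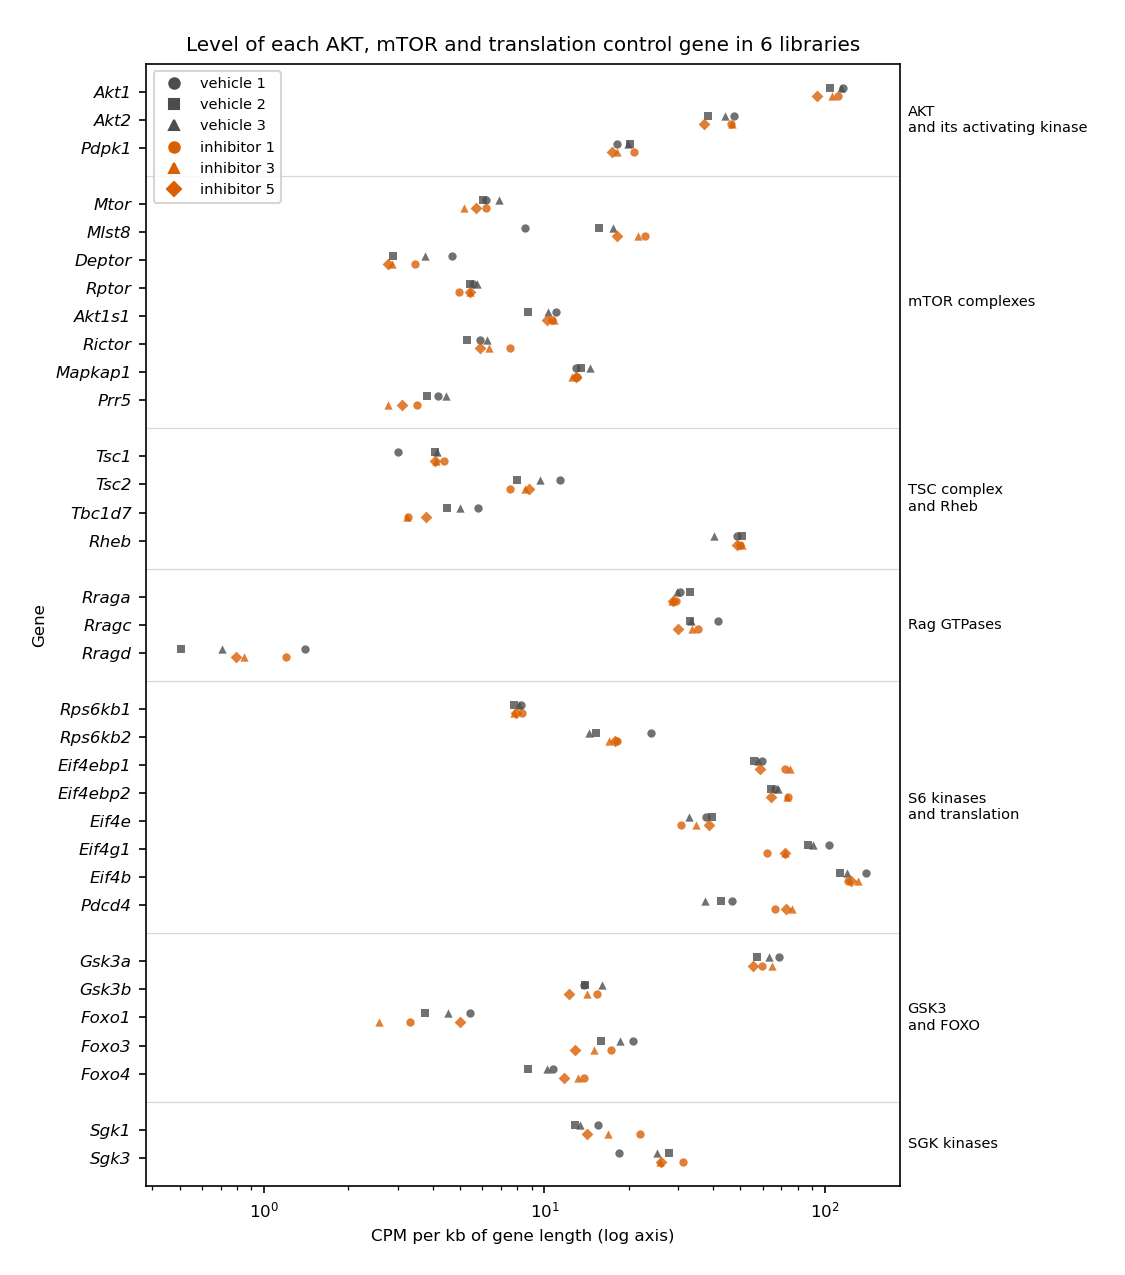
Level of each gene in each library, in CPM per kb of gene length on a log axis, grouped by role, with vehicle in grey and inhibitor in orange. Levels run from about 1 CPM per kb for Rragd (mean 0.909) to above 100 CPM per kb for Akt1 and Eif4b, and within most genes the groups overlap.

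The translation factors and S6 kinases held the one gene that passed. Pdcd4 binds the helicase eIF4A and keeps it from joining the cap complex, and its protein is degraded after phosphorylation by S6 kinase. Pdcd4 stood at 119.6, 109 and 96.0 CPM with vehicle and at 170.5, 196 and 187 CPM with the inhibitor. All inhibitor libraries were above all vehicle libraries. The means were 108 ± 11.9 CPM with vehicle and 184 ± 12.7 CPM with the inhibitor (SD, n = 3 each), with a fitted log2 fold change of 0.77 ± 0.13 (SE; 95% interval 0.46 to 1.07; edgeR adjusted p = 0.042). Without vehicle 1 the log2 fold change of Pdcd4 was 0.84 (edgeR adjusted p = 0.0115). With any other library left out the edgeR call was lost, with adjusted p of 0.074 to 0.177 and log2 fold changes of 0.69 or more, while DESeq2 called Pdcd4 over all 6 libraries (adjusted p = 9.04e-06) and in each of its 6 runs with a library left out. In the authors' deposited table Pdcd4 has a log2 fold change of 0.77 and an adjusted p of 1.56e-05.

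Pdcd4 lies on chromosome 19 from 53892231 to 53929860 on the plus strand (GRCm38). RefSeq gives it more than 1 start site, and the bases before 2 of them are shown because Pdcd4 is the member whose transcript passed the test. Both run 5′ to 3′ on the plus strand of GRCm38, the first over chr19:53891981-53892230 and the second over chr19:53903101-53903298, where exonic bases were left out. Neither holds CACGTG (the E-box bound by MYC, TFEB and related factors, the same on both strands) or GTAAACA (a FOXO core motif, searched on both strands).
Pdcd4, first start site: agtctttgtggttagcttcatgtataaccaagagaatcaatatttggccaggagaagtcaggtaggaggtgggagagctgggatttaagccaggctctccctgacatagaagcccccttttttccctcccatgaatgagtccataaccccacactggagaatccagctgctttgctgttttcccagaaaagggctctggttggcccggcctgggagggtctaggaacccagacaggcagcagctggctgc
Pdcd4, second start site: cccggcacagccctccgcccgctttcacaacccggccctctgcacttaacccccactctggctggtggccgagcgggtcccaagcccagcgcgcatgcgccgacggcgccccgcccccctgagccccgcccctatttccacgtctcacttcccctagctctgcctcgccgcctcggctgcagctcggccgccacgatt

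Eif4g1, the scaffold of the cap complex that holds the cap-binding protein and the helicase together, lay in the opposite direction to Pdcd4. It is on chromosome 16 from 20668313 to 20692884 (GRCm38). Eif4g1 stood at 562, 474 and 494 CPM with vehicle and at 338, 391 and 393 CPM with the inhibitor. Every inhibitor library was below every vehicle library. The means were 510 ± 46.2 CPM and 374 ± 31.6 CPM (SD, n = 3 each), a log2 fold change of -0.45 ± 0.14 (SE), which did not pass (edgeR adjusted p = 0.122). DESeq2 called it lower (adjusted p = 0.0194), as does the authors' deposited table (log2 fold change -0.44, adjusted p = 0.0269). DESeq2 called 12.1% of all tested genes (4.9% higher and 7.23% lower), and 2 of the 33 members, Pdcd4 higher and Eif4g1 lower. The authors' deposited table calls these 2 members in the same directions. Of its 13809 genes with an adjusted p, 10.8% were past 0.05 (4.24% higher and 6.57% lower). Limma voom with quality weights for the libraries called 6 members, Pdcd4, Foxo4 and Eif4ebp1 higher and Eif4g1, Tbc1d7 and Prr5 lower, against 22.3% of all tested genes (10.7% higher and 11.6% lower). Without the weights limma voom called 0 members (Pdcd4 at an adjusted p of 0.0524), against 0.664% of all tested genes (0.234% higher and 0.429% lower).

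The cap-binding protein gene and the genes of its inhibitors did not pass. Eif4ebp1, which binds eIF4E when mTOR is inactive, had an estimated log2 change of 0.25 ± 0.13 (SE; edgeR adjusted p = 0.30). Its vehicle libraries lay between 55.0 and 58.6 CPM and its inhibitor libraries between 57.6 and 73.8 CPM, with inhibitor 5 inside the vehicle range. The paralog Eif4ebp2 had an estimated log2 change of 0.08 (adjusted p = 0.692) and Eif4e one of -0.08 (adjusted p = 0.752). Eif4b, with the highest level of all members, stood at 539.8, 435 and 463 CPM with vehicle and at 467, 508 and 479 CPM with the inhibitor. The groups overlapped for Eif4b, with an estimated log2 change of 0.016 (adjusted p = 0.956). Rps6kb1, the main S6 kinase gene and the lowest per length of this role, stood at 65.0, 61.3 and 63.8 CPM with vehicle and at 65.5, 61.3 and 62.3 CPM with the inhibitor. These Rps6kb1 values were nearly level, with an estimated log2 change of -0.0077 (adjusted p = 0.972). The related kinase gene Rps6kb2 had an estimate of -0.016 (adjusted p = 0.971), or 0.25 without vehicle 1. Its annotated exons share 1224 bases with Ptprcap, which stood at 13.7 to 31.7 CPM, and 45 bases with the more abundant Coro1b, at 219 to 265 CPM. The libraries do not mark strand, so reads of these genes may be mixed. Gsk3a, Foxo1, Deptor, Rragc, Rps6kb1, Akt1s1 and Rptor share 84 to 820 exonic bases with a neighbouring gene, and the same limit applies to them.

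**Figure D3:**
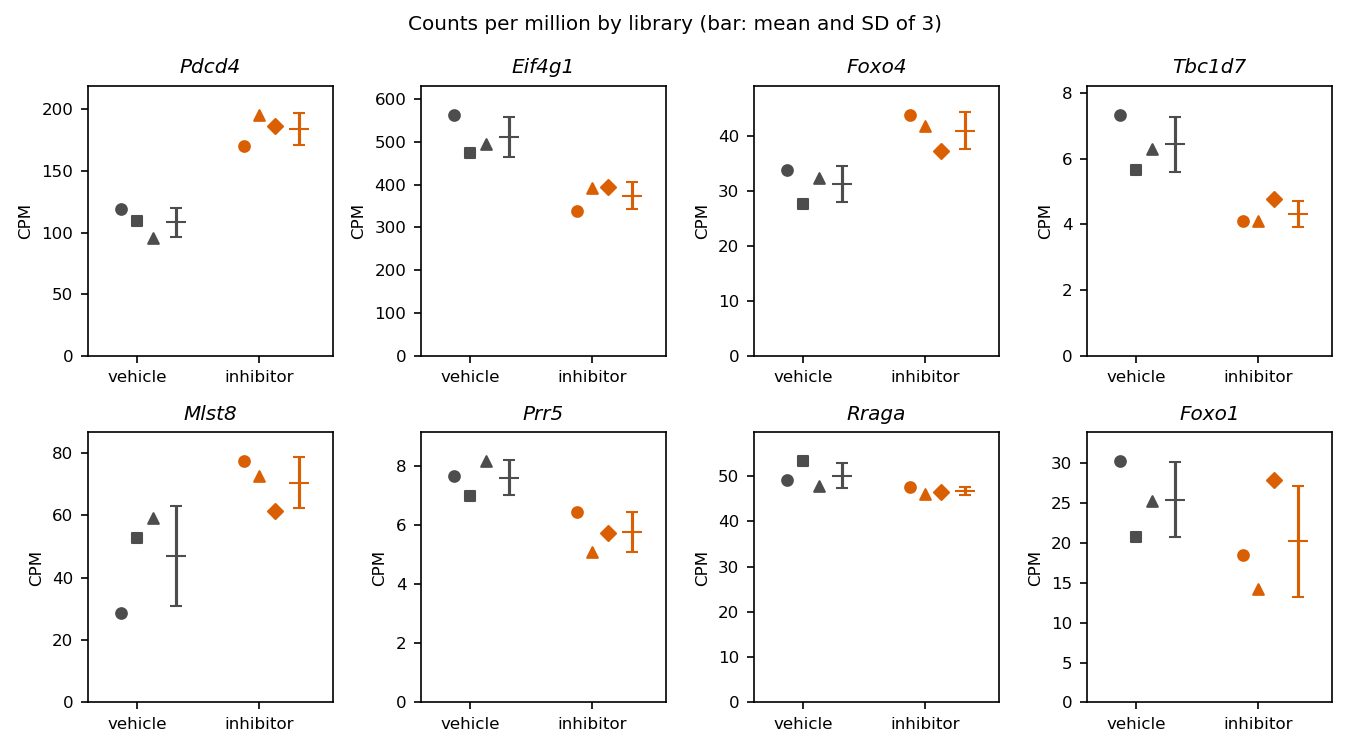
CPM in each of the 6 libraries (points) for the 7 members whose groups do not overlap and for Foxo1, with the group mean and SD (n = 3) beside the points and axes from 0. Pdcd4, Foxo4 and Mlst8 are higher in all 3 inhibitor libraries, and Eif4g1, Tbc1d7, Prr5 and Rraga are lower, while inhibitor 5 lies in the vehicle range for Foxo1.

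The 2 groups did not overlap for 7 members (21.2%), 3 higher and 4 lower with the inhibitor, as the plot of CPM by library shows. Among all tested genes the share was 30.7% (14.4% higher and 16.2% lower), so absence of overlap was not more frequent among the members.

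Among AKT and its activating kinase, 0 of 3 genes passed. Akt1, the member of this role with the highest level, stood at 312, 280 and 308 CPM with vehicle and at 301, 284 and 253 CPM with the inhibitor. The groups overlapped, and the log2 fold change was -0.10 (edgeR adjusted p = 0.667). Pdpk1, the kinase that phosphorylates the activation loop of AKT, S6 kinase and SGK, stood at 131, 147 and 144 CPM with vehicle and at 151, 131 and 126 CPM with the inhibitor. Its groups overlapped too, at -0.05 (adjusted p = 0.843). Akt2, the isoform best known from insulin signalling, had an estimate of 0.0028 (adjusted p = 0.992). Within each library the log2 ratio of Akt1 to Akt2 differed by -0.10 between groups (exact two-sided permutation p = 0.2).

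Of the 8 mTOR complex genes, 0 passed. Mlst8, the subunit shared by both mTOR complexes and the highest of this role per length, stood at 28.7, 52.8 and 59.2 CPM with vehicle and at 77.2, 72.7 and 61.3 CPM with the inhibitor. Vehicle 1 was the low value, and inhibitor 5 exceeded vehicle 3 by a small margin. The log2 fold change of Mlst8 was 0.58 ± 0.26 (SE; edgeR adjusted p = 0.248), and 0.33 without vehicle 1. Its exons share 997 bases with Bricd5, which stood below 0.5 CPM in every library.

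Prr5, a subunit of the second mTOR complex, stood at 7.67, 6.99 and 8.15 CPM with vehicle and at 6.44, 5.10 and 5.72 CPM with the inhibitor. The inhibitor libraries were all lower, with an estimated log2 change of -0.40 ± 0.18 (SE; edgeR adjusted p = 0.253). Deptor, an mTOR inhibitor subunit with the lowest level of this role, stood at 40.7, 24.9 and 32.5 CPM with vehicle and at 29.9, 24.8 and 23.9 CPM with the inhibitor. The Deptor groups overlapped through vehicle 2, and the log2 fold change was -0.32 ± 0.20 (adjusted p = 0.389), -0.14 without vehicle 1 and -0.48 without vehicle 2. Mtor itself, the kinase, had an estimate of -0.16 (adjusted p = 0.460), with 51.9 to 59.2 CPM against 44.4 to 53.3 CPM.

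The scaffold genes of the 2 complexes had estimates of opposite sign, and neither passed. Rptor defines the first complex, mTORC1, and had an estimated log2 change of -0.08 (edgeR adjusted p = 0.694). Rictor defines the second, mTORC2, and had one of 0.19 (adjusted p = 0.449). Within libraries the log2 ratio of Rptor to Rictor, per length, was -0.08, 0.03 and -0.12 with vehicle and -0.60, -0.23 and -0.13 with the inhibitor. The ratio was lower in every inhibitor library, with inhibitor 5 close to vehicle 3, and the difference was -0.26 (exact two-sided permutation p = 0.1, or 0.5 adjusted over 10 ratios) and -0.12 without inhibitor 1. Mapkap1, another subunit of the second complex, had an estimate of -0.09 (adjusted p = 0.663), and Akt1s1, an AKT substrate that inhibits the first complex, had one of 0.08 (adjusted p = 0.773).

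In the TSC complex and Rheb, 0 of 4 genes passed. Tbc1d7, a small subunit of the TSC complex (chromosome 13, 43151740 to 43171501, GRCm38), stood at 7.33, 5.66 and 6.30 CPM with vehicle and at 4.10, 4.09 and 4.78 CPM with the inhibitor. All inhibitor libraries were below all vehicle libraries, and the log2 fold change was -0.57 ± 0.20 (SE; edgeR adjusted p = 0.158). Tsc1, the stabilising subunit and lowest of this role per length, stood at 23.2, 31.4 and 31.9 CPM with vehicle and at 33.9, 31.7 and 31.5 CPM with the inhibitor. Vehicle 1 lay below the other 5 libraries, which were close together, and the estimate for Tsc1 was 0.17 (adjusted p = 0.562), or 0.03 without vehicle 1. Tsc2, the subunit that inactivates Rheb, had an estimate of -0.22 (adjusted p = 0.432), -0.09 without vehicle 1 and -0.34 without vehicle 2, and its exons share 693 bases with Pkd1. Rheb, the highest of this role, stood at 74.0, 77.1 and 61.3 CPM with vehicle and at 76.2, 77.0 and 73.8 CPM with the inhibitor. Vehicle 3 was the low value among close ones, and the estimate for Rheb was 0.10 (adjusted p = 0.677).

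Among the 3 Rag GTPase genes 0 passed. Rraga, the partner that binds the first complex in its GTP form, stood at 49.1, 53.3 and 47.9 CPM with vehicle and at 47.6, 46.0 and 46.5 CPM with the inhibitor. The groups did not overlap, yet vehicle 3 and inhibitor 1 lay close, and the log2 fold change was -0.10 (edgeR adjusted p = 0.606). Rragc, the highest of the Rag genes, stood at 109, 86.3 and 86.8 CPM with vehicle and at 92.1, 87.9 and 78.1 CPM with the inhibitor. Vehicle 1 was high and the rest overlapped, at -0.13 (adjusted p = 0.620), or -0.0089 without vehicle 1. Rragd, the lowest of all members, stood at 7.04, 2.54 and 3.58 CPM with vehicle and at 6.05, 4.28 and 4.02 CPM with the inhibitor. Vehicle 1 exceeded every inhibitor library while vehicles 2 and 3 were below all of them, and the log2 fold change of 0.13 ± 0.40 (SE; adjusted p = 0.876) was 0.63 without vehicle 1.

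The direct AKT targets GSK3 and FOXO had 0 of 5 genes past the threshold. Foxo4 encodes a transcription factor that AKT keeps out of the nucleus, and it lies on chromosome X from 101254528 to 101260873 (GRCm38). It stood at 33.8, 27.6 and 32.4 CPM with vehicle and at 43.8, 41.8 and 37.3 CPM with the inhibitor. The inhibitor libraries were all higher, and the log2 fold change was 0.39 ± 0.13 (SE; edgeR adjusted p = 0.151). The other 2 FOXO genes had estimates in the other direction. Foxo3 had an estimated log2 change of -0.29 ± 0.16 (adjusted p = 0.317). Foxo1, lowest of this role per length, stood at 30.2, 20.8 and 25.3 CPM with vehicle and at 18.4, 14.3 and 27.9 CPM with the inhibitor. Inhibitor 5 lay within the vehicle range and the other 2 inhibitor libraries below it, with an estimated log2 change of -0.33 ± 0.27 (adjusted p = 0.501), which ran from -0.63 without inhibitor 5 to -0.12 without inhibitor 3, and was -0.19 without vehicle 1. Foxo1 transcript counts do not show how much of the protein is nuclear.

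Gsk3a, the highest gene of this role, stood at 155, 130 and 143 CPM with vehicle and at 135, 146 and 125 CPM with the inhibitor. Its groups overlapped, with an estimated log2 change of -0.08 (edgeR adjusted p = 0.749). Gsk3b, the paralog that phosphorylates glycogen synthase and beta-catenin as Gsk3a does, had an estimate of -0.07 (adjusted p = 0.796).

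The SGK kinases are relatives of AKT that the second mTOR complex and Pdpk1 activate, and 0 of 2 passed. Sgk3, the higher of the pair per length, stood at 103, 156 and 141 CPM with vehicle and at 176, 146 and 147 CPM with the inhibitor. Vehicle 1 was low and inhibitor 1 high, with a log2 fold change of 0.22 (edgeR adjusted p = 0.497), 0.07 without vehicle 1, 0.13 without inhibitor 1 and 0.35 without vehicle 2. Sgk1, whose transcript is known to respond to glucocorticoids, stood at 64.8, 53.4 and 55.7 CPM with vehicle and at 91.3, 69.8 and 58.9 CPM with the inhibitor. Inhibitor 5 lay inside the vehicle range, and the log2 fold change was 0.34 ± 0.18 (adjusted p = 0.313), or 0.16 without inhibitor 1.

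Altogether 10 ratios of paralogs or partners were compared within libraries, where scaling cancels out. In 2 of the 10, Rptor to Rictor and Eif4ebp1 to Eif4ebp2, the groups did not overlap. The log2 ratio of Eif4ebp1 to Eif4ebp2 was -0.20 ± 0.04 with vehicle and -0.04 ± 0.08 with the inhibitor (SD, n = 3 each), a difference of 0.16 (exact permutation p = 0.1, adjusted p = 0.5). Eif4ebp1 to Eif4e, the inhibitor against its target, differed by 0.32 (exact permutation p = 0.3) and Tsc1 to Tsc2 by 0.39 (exact permutation p = 0.3). Both had overlapping groups, and both moved with single libraries: the first to 0.20 without inhibitor 1 and 0.52 without inhibitor 5, the second to 0.12 without vehicle 1 and 0.59 without vehicle 2. The log2 ratio of Foxo1 to Foxo3 was -1.36 in inhibitor 5 and -2.37 and -2.54 in the other inhibitor libraries, so libraries of 1 group differed more than the groups did (difference -0.08, exact permutation p = 1). An exact permutation test of 3 libraries against 3 cannot give a p below 0.1.

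**Figure D4:**
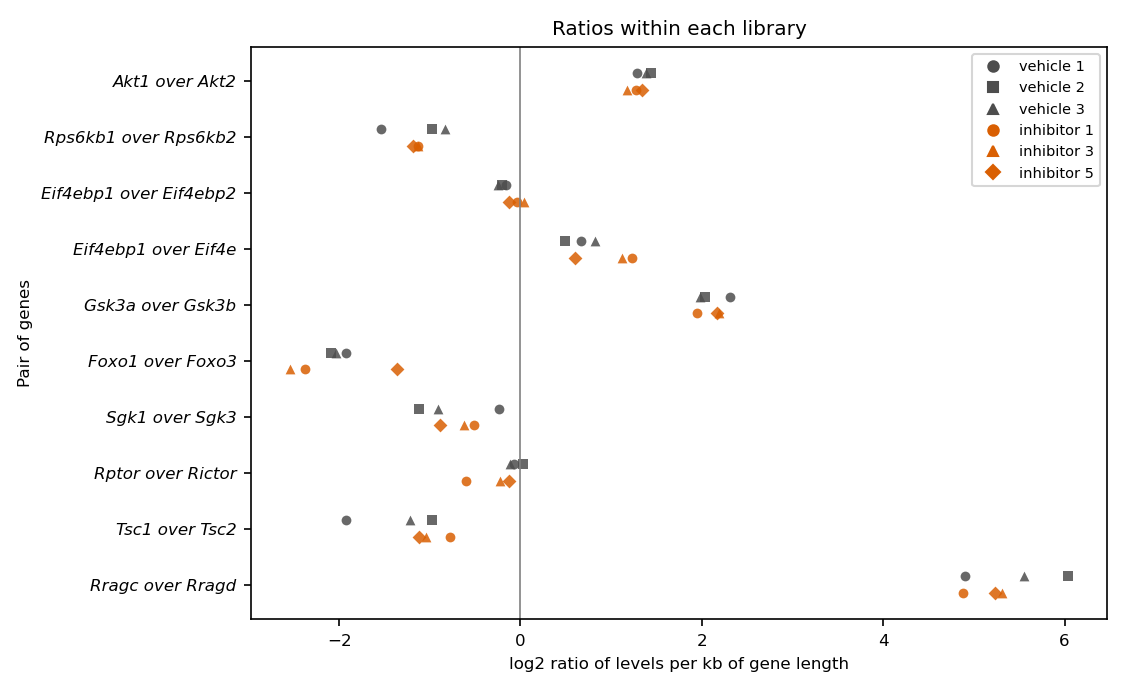
Log2 ratio of 10 pairs of genes (CPM per kb) in each library, with vehicle in grey and inhibitor in orange. The groups are apart for Rptor over Rictor and for Eif4ebp1 over Eif4ebp2, with differences of -0.26 and 0.16.

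Promoter windows from RefSeq (GRCm38.p6, 250 bases before to 50 after a start site) were found for 28 of the 33 members. CACGTG was in a window of 6 of the 28 (21.4%), namely Eif4e, Eif4g1, Rheb, Rragc, Sgk1 and Tbc1d7, against 8.09% of all 27025 genes with a window. A match to these letters is a description and shows no binding. Eif4g1 and Tbc1d7 are the members that hold the motif and had the smallest unadjusted p-values among those with lower estimates, and their upstream bases are shown for that reason, with the motif in capitals. For Eif4g1 (plus strand, chr16:20672477-20672722) it starts 54 bases before the start site, and for Tbc1d7 (minus strand, chr13:43171502-43171751) it starts 53 bases before it. The Eif4g1 window holds a further match after the start site, outside the printed stretch.
Eif4g1: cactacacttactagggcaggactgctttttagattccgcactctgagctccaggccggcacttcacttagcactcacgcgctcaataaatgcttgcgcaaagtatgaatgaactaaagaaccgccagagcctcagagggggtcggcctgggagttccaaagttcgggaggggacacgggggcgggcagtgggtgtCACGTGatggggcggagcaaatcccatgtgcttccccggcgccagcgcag
Tbc1d7: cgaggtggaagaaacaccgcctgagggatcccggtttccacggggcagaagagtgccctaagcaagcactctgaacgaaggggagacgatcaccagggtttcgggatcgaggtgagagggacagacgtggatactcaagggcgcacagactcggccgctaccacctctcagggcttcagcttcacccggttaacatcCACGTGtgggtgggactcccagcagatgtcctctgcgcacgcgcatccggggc
The other 4 genes with the E-box had log2 fold changes of -0.08 (Eif4e), 0.10 (Rheb), -0.13 (Rragc) and 0.34 (Sgk1), so holders of the motif lay on both sides of 0. GTAAACA was in a window of 2 of the 28 members (7.14%), Akt1 and Mapkap1, against 4.05% of all genes. By window the share was 7.14% (3 of 42) against 3.65%, and 2 of these 3 windows belong to Mapkap1.

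Outside the 33, 116 further genes of the pathway were listed, of which 112 were tested. In the edgeR test over all genes 2 rose and 0 fell, a share of 1.79% against 1.83% of all tested genes. Before adjustment, 14 had higher and 8 had lower values at p under 0.05 (19.6% against 21.6%). DESeq2 called 4 higher and 5 lower (8.04% against 12.1%). In 29 the groups did not overlap (25.9% against 30.7%). Over the 4 lists and both directions together, each of these shares was at or below that of all tested genes. In the list of other AKT, mTOR and AGC kinase genes and substrates, 36% had p under 0.05 and 36% did not overlap. Both lie above the share of all tested genes, while the other lists held 14.3% to 16.1% and 20% to 25.8%. By direction over the 4 lists together, 2 of the 112 rose (1.79%) against 0.633% of all tested genes, and 0 fell against 1.19%. Before adjustment, 14 of the 112 were higher, against 9.68% of all tested genes, and 8 of the 112 lower, against 11.9%. By both marks the share of higher genes was above that of all tested genes and the share of lower genes below it. The median log2 fold change of the 112 was 0.08.

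Among 31 other genes of the cap complex and of translation control 1 rose, Paip2, which encodes an inhibitor of the poly(A)-binding protein. It stood at 139.7, 122 and 115 CPM with vehicle and at 233, 209 and 222 CPM with the inhibitor. The inhibitor libraries of Paip2 were all above the vehicle libraries, with an estimated log2 change of 0.82 ± 0.12 (SE; edgeR adjusted p = 0.0398). Paip2, like Pdcd4, encodes a translational repressor. The helicase paralogs that Pdcd4 binds were read after their values were seen, outside the naming rule. Eif4a1 had an estimated log2 change of -0.12 (adjusted p = 0.651). Eif4a2 stood at 134, 164 and 164 CPM with vehicle and at 248.6, 211 and 229 CPM with the inhibitor, without overlap, at 0.58 ± 0.14 (adjusted p = 0.0728). Larp1, which represses messages with a terminal oligopyrimidine tract and was also chosen after its values were seen, had an estimated log2 change of -0.44 ± 0.12 (adjusted p = 0.103).

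Among 25 other AKT, mTOR and AGC kinase genes and substrates 1 rose, Cdkn1b, a cyclin-dependent kinase inhibitor that FOXO factors induce and AKT phosphorylates. Cdkn1b stood at 146, 134 and 126 CPM with vehicle and at 258, 213 and 221 CPM with the inhibitor. The groups did not overlap, and the log2 fold change was 0.77 ± 0.13 (SE; edgeR adjusted p = 0.042). As with Pdcd4, the edgeR calls of Paip2 and Cdkn1b depended on the libraries used. The edgeR adjusted p ran from 0.0079 to 0.144 and from 0.0144 to 0.163 when 1 library was left out. DESeq2 called both over all libraries (adjusted p = 2.54e-07 and 7.17e-06) and in every run with 1 library left out.

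The 21 genes for PI3K subunits and the phosphatases that oppose them held 0 that passed. Inppl1, a lipid phosphatase, had the smallest p of these, with 27.6, 17.5 and 23.7 CPM with vehicle and 11.6, 9.97 and 12.9 CPM with the inhibitor. The Inppl1 groups did not overlap, with an estimated log2 change of -0.996 ± 0.21 (SE; edgeR adjusted p = 0.0593, DESeq2 adjusted p = 0.000647). The next were Pik3r2, a regulatory subunit, at -0.48 (adjusted p = 0.164), and Pik3cb, the catalytic beta subunit, at 0.48 (adjusted p = 0.189). Among 35 genes of amino acid and energy sensing 0 passed. Ddit4l, a repressor of the first mTOR complex, had an estimated log2 change of -2.47 ± 0.52 (adjusted p = 0.0615) on means of 0.430 and 0.0734 CPM, which is few counts. Fnip2, a partner of folliculin, had one of -0.59 ± 0.14 (adjusted p = 0.0728), and Nprl2, a GATOR subunit, one of 0.58 ± 0.18 (adjusted p = 0.13).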

How the data were processed

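RNA of 6 mouse marrow samples was made into cDNA with a SMART-Seq v4 kit and into libraries with Nextera XT, which do not mark strand, per the labels' protocols. The submitters' processing notes name STAR, featureCounts and the mm10 build, without versions or settings. The authors deposited raw read counts for 14992 genes, with gene lengths in bases. It also holds a comparison by the authors, by a test not given in the sources used here: a fold (ratio), its log2 value, a deposited p-value and an adjusted one.

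Groups are the treatments the labels give. The main test was edgeR 4.0.16 in R 4.3.3 on the counts (filterByExpr, 12806 genes tested and 2186 left out; TMM scaling; quasi-likelihood F test on group alone; Benjamini-Hochberg over all genes, threshold 0.05). The biological coefficient of variation came to 25.2%. A standard error is the size of the log2 fold change over the square root of F. CPM was computed on TMM-scaled library sizes, and levels of different genes are compared per kb of the deposited gene length. Members had 92 to 31037 counts per library. Ratios within libraries were compared with an exact two-sided permutation test. Coordinates and shared exons come from GENCODE vM21 (GRCm38), and promoter sequences from RefSeq.

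The members, the 4 pathway lists (116 genes, of which Castor1 and Castor2 were not in the table) and the 6 marker lists (Ly6g and Ahsp were not in the table) were chosen with earlier results of these data known. All 33 members are named. Values in every library are given for members with an unadjusted p under 0.05, with groups that do not overlap, or with the highest or lowest level per length of their role. From each pathway list the genes past the threshold are named, or otherwise the 3 with the smallest p. Alternatives were DESeq2 1.42.0 (size factors and its Wald test), upper-quartile scaling, limma 3.58.1 voom with and without quality weights, no filter, a filter at 5 CPM (in 3 libraries or more), a threshold of 0.10, scaling without the 10 most abundant genes, a replicate block, each library left out, and, for ratios, a pseudocount of 0.1 CPM per kb. The DESeq2 runs with 1 library left out were chosen after seeing the data. The steps were tested on simulated data.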

Additional observations from a re-analysis of the deposited data

How the results depend on the processing

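The groups share the replicate numbers 1 and 3, and no label says that a number marks a shared mouse, litter or day. Deviations of same-numbered libraries from their group mean correlated at -0.442 (number 1) and -0.0504 (number 3). Libraries of unlike number correlated at -0.382 to 0.401. Within a group the deviations sum to 0, so these correlations depend on each other and cannot decide whether libraries are paired. As no label pairs them, the numbers were not taken to pair libraries. With the replicate block on those 4 libraries, edgeR called 0 members higher, 0 other pathway genes higher, and 0 genes higher and 7 lower in all. With the block the log2 fold change of Pdcd4 was 0.77 (edgeR adjusted p = 0.389), and the estimates of Pdpk1 and Eif4b turned to 0.033 and -0.037.

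Over 21 alternatives Pdcd4 kept its direction at a log2 fold change of 0.69 to 0.89 and was called in 14. Members called higher numbered 0 with limma voom, 3 with quality weights, and 0 to 1 in edgeR with 1 library left out. In edgeR without vehicle 3 or any 1 inhibitor library, 0 of all genes passed, with 1832 to 2398 genes at an unadjusted p under 0.05, and DESeq2 called 258 to 391 genes higher and 491 to 709 lower on the same libraries. Members called lower numbered 1 with DESeq2, 3 with quality weights, and 0 in every edgeR run with 1 library left out. Of the other pathway genes, DESeq2 called 4 higher and 5 lower, where 4.9% of all tested genes were called higher and 7.23% lower. Limma voom called 1 higher, against 0.234% of all tested genes. Quality weights gave 12 higher and 8 lower, where 10.7% of all tested genes were called higher and 11.6% lower. An adjusted p under 0.10 gave 3 lower, where 8.25% of all tested genes passed in either direction. With 1 library left out edgeR called 0 to 3 of the other pathway genes higher and 0 to 2 lower. Of all tested genes, those edgeR runs called 0% to 3.1% higher and 0% to 4.89% lower. DESeq2 without vehicle 1 called 2 members higher and 1 lower, and 8 other pathway genes higher and 6 lower, where 7.04% of all tested genes were called higher and 7.58% lower. Without vehicle 2 it called 1 member lower and 2 other genes lower, and without vehicle 3 it called 4 other genes higher and 1 lower. Without inhibitors 1, 3 and 5 in turn it called 3, 1 and 2 other genes lower. In those 5 runs 1.98% to 3.79% of all tested genes were called higher and 3.76% to 7.03% lower.

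Signs turned for 10 members, none of which passed in any setting run, and the cause was not tested. For Akt2 the estimate was -0.0047 with upper-quartile scaling and -0.012 with the 5 CPM filter, and for Rps6kb2 it was 0.042 with limma voom and 0.19 with quality weights, which also gave 0.045 for Gsk3a. With 1 library left out, edgeR estimates ran from -0.075 to 0.11 for Akt2, from -0.12 to 0.0064 for Pdpk1, from -0.012 to 0.15 for Akt1s1, from -0.14 to 0.63 for Rragd, from -0.031 to 0.019 for Rps6kb1, from -0.15 to 0.25 for Rps6kb2, from -0.17 to 0.0070 for Eif4e, from -0.048 to 0.11 for Eif4b and from -0.14 to 0.020 for Gsk3b. DESeq2 turned the sign without vehicle 1 for Rps6kb1 (0.00073) and Rps6kb2 (0.24). Without vehicle 2 it did so for Akt2 (-0.074), Akt1s1 (-0.010), Rragd (-0.14) and Eif4b (-0.045), and without vehicle 3 for Rps6kb1 (0.0033), Eif4b (-0.0024) and Gsk3b (0.010). Without inhibitor 1 it did so for Akt2 (-0.040), Rragd (-0.069) and Eif4e (0.0043). Without inhibitor 3 it did so for Akt2 (-0.046), Rps6kb1 (0.020), Rps6kb2 (0.024) and Eif4b (-0.0087), and without inhibitor 5 for Pdpk1 (0.0016) and Gsk3b (0.015). The difference in log2 ratio ran across 0 with 1 library left out for Rps6kb1 to Rps6kb2 (-0.24 to 0.11), Gsk3a to Gsk3b (-0.068 to 0.093), Foxo1 to Foxo3 (-0.44 to 0.15) and Sgk1 to Sgk3 (-0.10 to 0.34). With 3 libraries a group, the 95% interval lay within a 1.5-fold change for 21 of the 33 members. In the others, Rragd and Mlst8 among them, a 1.5-fold change in at least 1 direction lay inside the interval.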
